A study of Mus musculus with 62 samples.

Results

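The genes that mark a neuron as glutamatergic or GABAergic were followed through every library of the series: Slc17a7 and Slc17a6, which encode the vesicular glutamate transporters VGLUT1 and VGLUT2, Slc32a1, which encodes the vesicular GABA transporter VGAT, and Gad1 and Gad2, which encode the GABA-synthesizing enzymes GAD67 and GAD65. They were chosen by name, as every deposited row whose Ensembl identifier maps to one of these 5 symbols, and are 5 of 12483 genes in all. All 5 were among the 11569 rows kept for the nucleus accumbens (NAc) and prefrontal cortex (PFC), and 4 were among the 12047 rows kept for the suprachiasmatic nucleus (SCN), where Slc17a7 has no row in the table used here. Gene counts came from bulk RNA sequencing of punches of frozen brain from C57BL/6J mice bred in house. Brains were taken at ZT6, which is 6 h after lights on. This was about 4 weeks after repeated reversals of the light cycle in adolescence (circadian rhythm disruption, CRD) or a control paradigm had ended. The 62 libraries came from 26 mice, with 26 NAc, 17 PFC and 19 SCN libraries, and 17 mice gave both NAc and PFC, 19 both NAc and SCN and 12 all 3 regions. The labels name the region and the mouse but not CRD or control, sex or age. Each regional group therefore mixes both treatments and, since the paper sequenced males and females, both sexes. Only regions and libraries were compared.

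Glutamate and GABA carry most fast excitation and inhibition in the brain. A neuron releases glutamate only if a vesicular glutamate transporter fills its vesicles, and releases GABA if glutamate decarboxylase makes the transmitter and VGAT loads it, so the transcripts of these genes are used as labels of transmitter identity. VGLUT1 is the main transporter of cortical pyramidal neurons, whereas VGLUT2 is the main one of thalamic and hypothalamic glutamate neurons; the principal neurons of the NAc are GABAergic projection neurons, and nearly all SCN neurons make GABA.

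On GRCm38, Slc17a7 (ENSMUSG00000070570) lies on chromosome 7 from 45163949 to 45176142 and Slc17a6 (ENSMUSG00000030500) on chromosome 7 from 51622006 to 51671119. Slc32a1 (ENSMUSG00000037771) lies on chromosome 2 from 158610767 to 158615748, Gad1 (ENSMUSG00000070880) on chromosome 2 from 70553072 to 70602014 and Gad2 (ENSMUSG00000026787) on chromosome 2 from 22622205 to 22693874. All are protein-coding genes on the plus strand, and a count covers the exons of the whole gene. Sequences from before their transcription starts are shown because the GABA genes varied together across libraries, so a reader can see what letters they do and do not share. The sequences are the RefSeq promoter windows on GRCm38.p6 (250 bases before to 50 after each start), cut to bases before the start that overlap no annotated exon of the gene. For Gad1 and Gad2 this cut leaves out the bases next to the RefSeq start (70562129 and 22622327). Capitals mark matches, on either strand, to CACGTG (the clock E-box), TGACGTCA (the cAMP element), GGGCGG (the GC box), TATAAA (the TATA box) or TAATTA (a homeodomain core). The pieces are chr7:45163671-45163920 for Slc17a7, chr7:51621580-51621829 for Slc17a6, chr2:158610508-158610757 for Slc32a1, chr2:70561879-70562041 for Gad1, which lies in an intron of a longer Gad1 transcript, and chr2:22622077-22622204 for Gad2.
Slc17a7: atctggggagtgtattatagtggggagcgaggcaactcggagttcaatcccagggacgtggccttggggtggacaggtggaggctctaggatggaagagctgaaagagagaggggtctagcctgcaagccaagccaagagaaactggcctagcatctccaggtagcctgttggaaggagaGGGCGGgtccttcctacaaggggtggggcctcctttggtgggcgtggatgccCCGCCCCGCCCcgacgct
Slc17a6: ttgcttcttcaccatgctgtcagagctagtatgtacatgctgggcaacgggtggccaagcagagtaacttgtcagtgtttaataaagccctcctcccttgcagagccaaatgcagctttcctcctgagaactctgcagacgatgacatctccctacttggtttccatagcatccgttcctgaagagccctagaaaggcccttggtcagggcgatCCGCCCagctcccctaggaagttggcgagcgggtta
Slc32a1: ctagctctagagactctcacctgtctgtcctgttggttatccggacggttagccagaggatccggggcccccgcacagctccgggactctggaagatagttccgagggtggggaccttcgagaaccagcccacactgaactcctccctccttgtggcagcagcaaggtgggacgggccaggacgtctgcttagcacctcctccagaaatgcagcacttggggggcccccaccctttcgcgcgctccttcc
Gad1: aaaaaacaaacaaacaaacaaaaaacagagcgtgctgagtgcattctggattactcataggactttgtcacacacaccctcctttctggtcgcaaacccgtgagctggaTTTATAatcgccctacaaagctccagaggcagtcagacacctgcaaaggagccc
Gad2: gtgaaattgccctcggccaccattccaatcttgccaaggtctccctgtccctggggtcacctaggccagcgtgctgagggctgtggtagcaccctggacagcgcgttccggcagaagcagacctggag
Slc17a6 has a further RefSeq start, whose window (chr7:51624387-51624686) is not printed. Over the 6 windows of 300 bases, no match to the E-box or the cAMP element was found, and 7.15% and 1.79% of the 32851 promoter windows of the genome hold one. The GC box, in 35.7% of all windows, matched 3 times in Slc17a7, with overlapping copies, once in the first Slc17a6 window and once in Gad1 outside the piece shown. The letters of the TATA box, in 13.6% of windows, matched once in Gad1. That match is on the minus strand, with its first base at -141 from the RefSeq start. The homeodomain core, in 5.29%, matched once in the second Slc17a6 window. The Slc32a1 and Gad2 windows held no match, so the 3 GABA genes had none of these 5 motifs in common. The windows of the GABA genes were 60.0% to 63.3% GC with 14 to 21 CG pairs, that of Slc17a7 63.7% with 13, and those of Slc17a6 53.7% with 8 and 43.0% with 3, beside medians of 52.7% and 7 over all windows. The coding sequences of Gad1 and Gad2 were 66.2% identical over 1743 aligned bases and those of Slc17a6 and Slc17a7 72.2% over 1663, and the longest run of bases shared by any of their transcripts was 17 and 21, shorter than the 75-base reads.

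Values are CPM (counts per 1000000 counts of a library) on 1 scale for all libraries, made from TMM-scaled library totals over the 11133 rows present in both tables. Libraries held 28879724 to 60009482 counts (NAc), 31216225 to 50333579 (PFC) and 16496666 to 35389742 (SCN), of which mitochondrial and ribosomal RNA-like genes took 31.5% to 75.2%. The regional labels were checked against marker lists. All 8 markers of striatal projection neurons were at 1 CPM or more in the NAc, and their summed level was 1589 to 3804 CPM there against 69.9 to 155 CPM in the PFC. The cortical glutamatergic list, of which 6 of 7 genes have a row (Emx1 has none), summed to 202 to 312 CPM in the PFC and 7.28 to 112 CPM in the NAc, and all 9 SCN neuron markers were present in the SCN at 78.5 to 414 CPM. Some libraries stood apart. SCN J1199 and SCN J1140 held 733 and 335 CPM of striatal markers where the SCN median was 126, SCN J1199 also had the lowest summed level of SCN markers, NAc J1159 was high in ribosomal RNA-like counts, and the libraries of mouse J1165 did not match each other in Xist (SCN 47.2 CPM, NAc 0.617 and PFC 0.390). No call on a transmitter gene between regions changed without any of these. Within-mouse counts below include J1165, and without it every direction counted as shared by all mice held in all 16 (NAc and PFC), 18 (SCN and NAc) or 11 (SCN and PFC) others.

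Slc17a7 varied widely in the NAc and had the narrowest spread of the 5 genes in the PFC. In the NAc it ranged from 4.77 CPM in J965 through a median of 68.0 to 359 in J1199, a 75.2-fold range over 26 libraries. In the PFC it ranged from 579 CPM in J1198 through a median of 646 to 679 in J1165, a 1.17-fold range over 17 libraries. The groups did not overlap, and the highest NAc library stayed below every PFC library. The SD of log2 CPM, with a prior count of 2 added, was 1.73 in the NAc, above that of 99.9% of the genes there, and 0.0535 in the PFC, above that of 0.122% of genes; the medians over all genes were 0.258 and 0.185. In bulk tissue, fewer cells of a type and less RNA per cell cannot be told apart, which applies to every level given here.

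Slc17a6 was the low-abundance glutamate transporter of the NAc and PFC and the only one with a row in the SCN. It ranged in the NAc from 0.0712 CPM (2 counts, J1177) through a median of 4.29 to 11.1 CPM (J1178), in the PFC from 3.46 through 5.17 to 8.01 CPM, and in the SCN from 22.8 (J965) through 60.1 to 106 CPM (J1165). The SCN lay above both other regions without overlap, and the NAc and PFC overlapped. Its spread was wide everywhere, with an SD of log2 CPM of 1.62, 0.344 and 0.596 in the NAc, PFC and SCN, above that of 99.8%, 91.0% and 92.6% of genes. In the NAc its SD was below that of Slc17a7 with the prior count and close to it without (1.76 and 1.74). Of the reads per kb assigned to both glutamate transporters, Slc17a6 made up a median of 4.51% in the NAc (0.88% to 26.4%, highest in J1014) and of 0.81% in the PFC (0.544% to 1.28%).

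**Figure D1:**
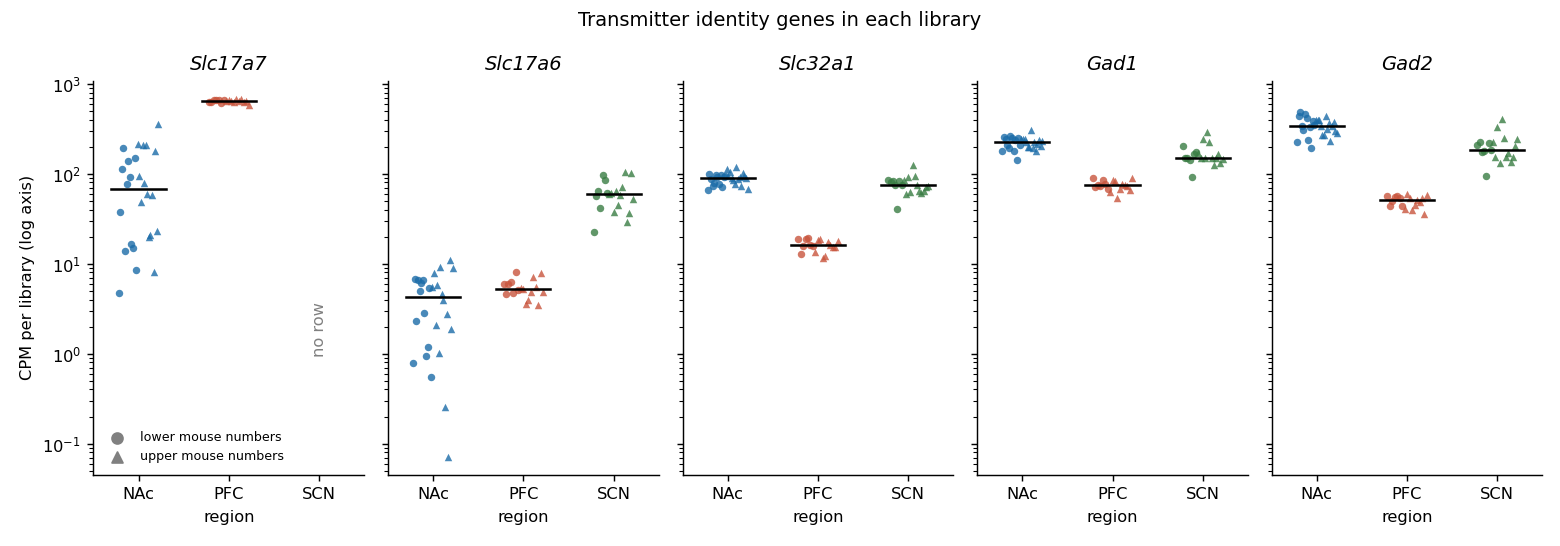
Level of each transmitter gene in each library (CPM, log axis) by region, with circles for mouse numbers up to J1021, triangles for those from J1140 and a bar at the median. Slc17a7 and Slc17a6 scatter over 75.2-fold and 155-fold in the NAc, whereas the 3 GABA genes stay within 1.79-fold to 2.51-fold there.

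The GABA genes were higher in the NAc and SCN than in the PFC. Slc32a1 ranged from 65.7 through a median of 90.4 to 117 CPM in the NAc, from 11.7 through 16.0 to 19.3 CPM in the PFC and from 40.6 through 74.2 to 127 CPM in the SCN. The PFC lay below both other regions without overlap, and NAc and SCN overlapped. Gad1, whose enzyme supplies most GABA of the cell body, ranged from 141 through 227 to 306 CPM in the NAc, from 53.3 through 74.6 to 90.4 CPM in the PFC and from 91.9 through 151 to 293 CPM in the SCN. Gad2, whose enzyme is concentrated at nerve terminals, ranged from 192 through 341 to 482 CPM in the NAc, from 35.2 through 51.7 to 60.2 CPM in the PFC and from 93.3 through 184 to 407 CPM in the SCN. For both enzymes the PFC lay below the other regions without overlap. In the SCN the same libraries were extreme for all 3 genes: J1159 was highest and J1018 lowest, and J1157 and J1160 were the next highest. The antisense genes Gad1os and Gm14205 overlap Gad1 and Slc32a1 and have no row in either table, and since the strand setting of the counting is not given in the sources used here, their reads cannot be told apart from those of the sense genes.

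Between genes, levels can be set side by side only per kb of exon. In the NAc the median order was Gad2 (58.0 CPM per kb), Slc32a1 (32.3), Gad1 (29.7), Slc17a7 (12.6) and Slc17a6 (0.795). In the PFC it was Slc17a7 (120 CPM per kb), Gad1 (9.76), Gad2 (8.80), Slc32a1 (5.73) and Slc17a6 (0.958). In the SCN it was Gad2 (31.4 CPM per kb), Slc32a1 (26.5), Gad1 (19.7) and Slc17a6 (11.1). The glutamate transporter thus led in the PFC and the synthesizing enzyme Gad2 in the other regions.

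Of the 5 genes, 4 were called between the NAc and PFC (edgeR quasi-likelihood test, Benjamini-Hochberg adjusted p under 0.05 over all rows and a fold change of at least 1.2), where 45.4% of all 11569 genes were called (23.7% higher and 21.7% lower in the NAc). Slc17a7 was 6.83-fold lower in the NAc (log2 fold change -2.77, SE 0.36, adjusted p = 4.95e-09, edgeR) and lower in 17 of 17 mice. Within those mice the median difference was larger, -4.64 log2 CPM, with a range from -7.03 to -1.59. With the mouse as a block the log2 fold change of Slc17a7 was -4.22 (adjusted p = 3.31e-08, edgeR). Slc32a1 was 5.54-fold higher (log2 fold change 2.47, SE 0.073, adjusted p = 4.55e-31), Gad1 2.96-fold higher (1.57, SE 0.070, adjusted p = 2.58e-24) and Gad2 6.85-fold higher (2.78, SE 0.10, adjusted p = 7.67e-28) by the same edgeR test, each in 17 of 17 mice. Gad1 differed less than its partner enzyme.

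The call on Slc17a6 between the NAc and PFC depended on the pairing. Without a block its log2 fold change was -0.34 (SE 0.30, adjusted p = 0.326, edgeR). In the 17 mice with both regions it was lower in the NAc in 13, with a median difference of -1.33 log2 CPM and a range from -5.60 to 1.205. With the mouse as a block the log2 fold change was -1.15 and was called (adjusted p = 0.0133, edgeR), beside 49.1% of genes called in either direction and 24.2% lower in that fit, and in the same mice without the block it was -0.56 (adjusted p = 0.158). The cause of the difference between these fits was not tested.

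The SCN was compared with the other regions in 1 fit of all 62 libraries. Its counts were deposited in a separate table, so region and table cannot be told apart. Against the NAc, 3 of the 4 genes tested were called, where 64.1% of 11133 genes were (33.1% higher, 31.0% lower). Slc17a6 was 14.1-fold higher in the SCN (log2 fold change 3.82, SE 0.27, adjusted p = 1.25e-20, edgeR), in 19 of 19 mice, and its change was larger in size than that of 99.8% of genes. Gad1 was 1.33-fold lower (log2 fold change -0.41, SE 0.082, adjusted p = 1.16e-05) and Gad2 1.69-fold lower (-0.75, SE 0.11, adjusted p = 8.94e-09) in the SCN by edgeR, in 15 and 18 of 19 mice. Slc32a1 had a log2 fold change of -0.22 (SE 0.077, adjusted p = 0.00908, edgeR), under the 1.2-fold limit. The order of levels for both enzymes was therefore NAc, SCN and PFC, with every step called, whereas for Slc32a1 the NAc and SCN were neighbours that were not called.

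Against the PFC, all 4 genes tested were called higher in the SCN, where 64.7% of 11133 genes were called and 33.7% were higher. Slc17a6 was 11.1-fold higher (log2 fold change 3.48, SE 0.31, adjusted p = 5.92e-16, edgeR), Slc32a1 4.75-fold (2.25, SE 0.090, adjusted p = 1.57e-32), Gad1 2.23-fold (1.16, SE 0.092, adjusted p = 5.68e-18) and Gad2 4.06-fold (2.02, SE 0.13, adjusted p = 6.38e-23). Each was higher in 12 of 12 mice with both regions. Of the 4 genes, Gad1 had the smallest fold between these regions and Slc17a6 the largest.

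The balance of excitatory to inhibitory vesicular transporters was taken within each library as log2 of Slc17a6 plus Slc17a7 over Slc32a1, each as counts per kb of exon, and is a description without a test. In the PFC it ranged from 4.09 through a median of 4.44 to 4.84, and all 17 libraries lay far above 0. In the NAc it ranged from -4.59 (J1177) through -1.20 to 1.49 (J1199), and 6 of 26 libraries lay above 0. Without division by exon length 11 of 26 did, and with the mean of Gad1 and Gad2 as the denominator 2 of 26. In the SCN, where only Slc17a6 enters, it ranged from -2.87 (J965) through -1.42 to 0.32 (J1018), the only one of 19 libraries above 0, beside 6 of 19 without division by exon length. The SCN value leaves out any VGLUT1 transcript, so it is not the same quantity as in the other regions. The NAc and PFC did not overlap, and within the 17 mice with both, the NAc was lower in 17, by -9.03 to -4.16 with a median of -6.85. The SD between libraries was 1.71 (NAc) and 0.242 (PFC).

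The NAc range came mostly from the numerator. Slc17a7, which made up most of the numerator, moved over 75.2-fold and Slc32a1 over 1.79-fold. Slc17a6 moved over 155-fold, down to 2 counts in J1177, but was a median of 4.51% of the numerator (0.88% to 26.4%). Beside the balance, the summed level of the 6 cortical glutamatergic markers with a row, all at 1 CPM or more in the NAc, ran from 7.28 through a median of 33.2 to 112 CPM, with J965 lowest and J1199 highest, the same libraries that were lowest and highest in Slc17a7. The summed striatal list was lowest in J1199 (1589 CPM) and highest in J1177 (3804 CPM), the library with the lowest balance. The part of these markers in the balance was not tested.

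**Figure D2:**
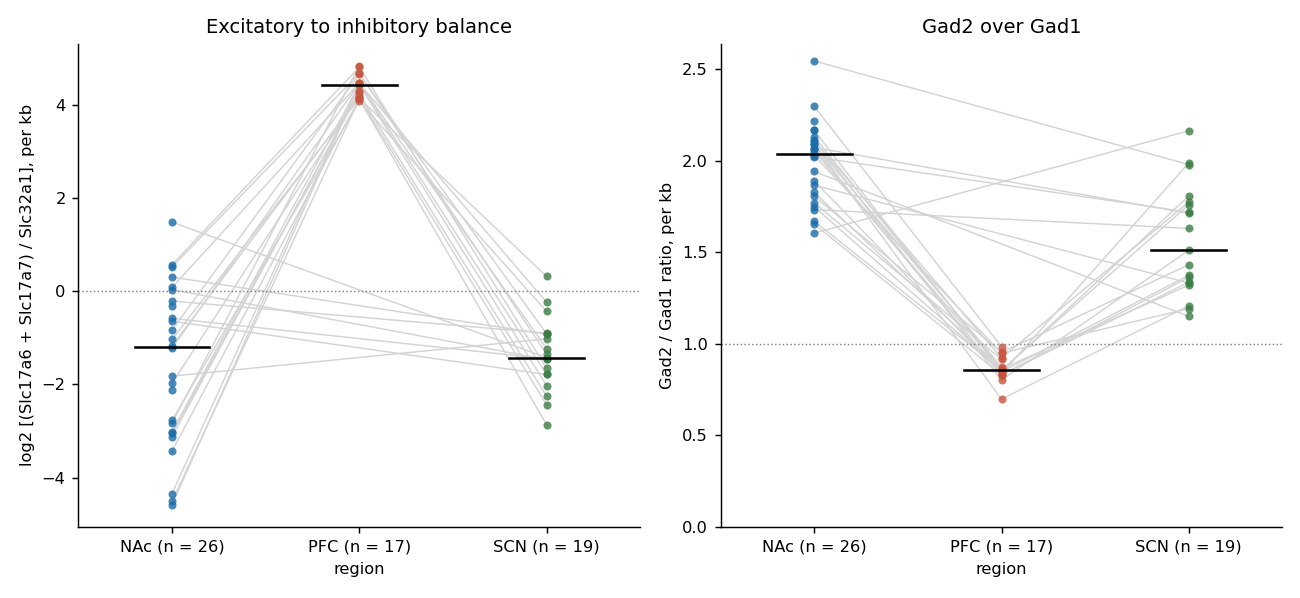
Left, excitatory to inhibitory balance (log2 ratio of counts per kb) and right, Gad2 over Gad1 (ratio of counts per kb), with a point for each library, grey lines joining the libraries of a mouse and a bar at the median. The PFC sits at 4.09 to 4.84 on the left and below 1 on the right, and the NAc spreads from -4.59 to 1.49.

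The proportion of the GABA-synthesizing enzymes differed by region. Gad2 over Gad1, per kb, was 1.60 through a median of 2.04 to 2.54 in the NAc, 0.697 through 0.859 to 0.984 in the PFC and 1.15 through 1.51 to 2.16 in the SCN. Every PFC library had less Gad2 than Gad1 per kb and every NAc and SCN library more. Without division by exon length the ratio was 1.23 to 1.96 in the NAc and 0.536 to 0.757 in the PFC. In the SCN it was then 0.884 to 1.66, and 16 of 19 libraries had more Gad2 than Gad1. In mice with both regions the NAc ratio exceeded the PFC ratio in 17 of 17, the SCN ratio exceeded the PFC ratio in 12 of 12 and fell below the NAc ratio in 15 of 19. Slc32a1 over Gad1, per kb, was 0.804 through 1.09 to 1.39 in the NAc, 0.488 through 0.586 to 0.700 in the PFC and 1.04 through 1.21 to 1.53 in the SCN. The PFC thus held the least transporter and the least Gad2 for each Gad1 transcript. These ratios are descriptions without a test.

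Across the libraries of a region, the GABA genes rose and fell together, and in the NAc so did both glutamate transporters. Relations were tested for 26 pairs of genes within regions by two-sided permutation of log2 CPM, adjusted together, and 11 passed by Pearson's r. All 9 pairs among Slc32a1, Gad1 and Gad2 passed, with r from 0.739 to 0.912 (raw p at most 0.00053, adjusted p at most 0.00138) and Spearman's rho from 0.584 to 0.912 (raw p at most 0.00961, adjusted p at most 0.025). The pair Gad1 and Gad2 had an r of 0.912 (NAc), 0.861 (PFC) and 0.830 (SCN). Without the 2 libraries farthest from the median, r of the 9 pairs was 0.621 to 0.904.

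Within the ranges of mouse numbers, used as possible batches, the same pairs had an r of 0.636 to 0.952 in the lower and 0.702 to 0.914 in the upper range. In the lower range of the PFC and SCN, with 7 libraries each and an exact permutation test, 5 of these 6 pairs no longer passed by r (adjusted p 0.118 to 0.232), and in the upper range Slc32a1 with Gad2 in the PFC did not (adjusted p = 0.0524, permutation). By rank the relations were weaker, with a rho of 0.393 to 0.893 in the lower and 0.510 to 0.916 in the upper range. Only Gad1 with Gad2 in the NAc passed by rho in the lower range (adjusted p = 0.00572, permutation). In the upper range all passed by rho except Gad1 with Gad2 in the SCN (adjusted p = 0.221, permutation). For Gad1 and Gad2 in the SCN, rho fell to 0.419 (adjusted p = 0.176, permutation) without the 2 farthest libraries, J1018 and J1159 being the ends of the range.

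Slc17a7 and Slc17a6 rose together in the NAc (r = 0.743, p = 2e-05, adjusted p = 6.5e-05; rho = 0.755, p = 2e-05, adjusted p = 0.000173; permutation, n = 26). Among mice of the lower number range r was 0.750, among those of the upper range 0.806, and without the 2 farthest libraries 0.687. By rank the lower range did not pass (rho = 0.678, adjusted p = 0.103, permutation), while the upper range did (rho = 0.793, adjusted p = 0.00525, permutation). In the PFC the same pair had an r of 0.063 (p = 0.811, adjusted p = 0.859, permutation) and a rho of 0.0907 (p = 0.731, adjusted p = 0.866). The difference between the regions was not tested.

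The glutamate transporters of the NAc were not shown to move with its GABA genes. Slc17a7 with Slc32a1 had an r of 0.0197 (p = 0.922, adjusted p = 0.922, permutation) and a rho of -0.0612 (p = 0.764, adjusted p = 0.866). Slc17a7 with Gad1 had an r of 0.39 (p = 0.047, adjusted p = 0.102) and a rho of 0.359 (p = 0.0706, adjusted p = 0.141) by the same permutation test. In the SCN, Slc17a6 fell as Gad1 rose (r = -0.530, p = 0.0193, adjusted p = 0.0457, permutation), but rho was -0.446 (p = 0.0578, adjusted p = 0.137), and without mouse J1165 r was -0.486 (adjusted p = 0.0952). The r was -0.651 and -0.484 in the lower and upper range (adjusted p = 0.232, exact, and 0.257, permutation). It passed without the 2 farthest libraries (r = -0.622, adjusted p = 0.0172, permutation), without SCN J1199 and SCN J1140 (-0.539, adjusted p = 0.0379) and on CPM of nuclear protein-coding genes (-0.544, adjusted p = 0.0375). By rank the relation had the same sign in each of these settings and its adjusted p did not pass in any.

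**Figure D3:**
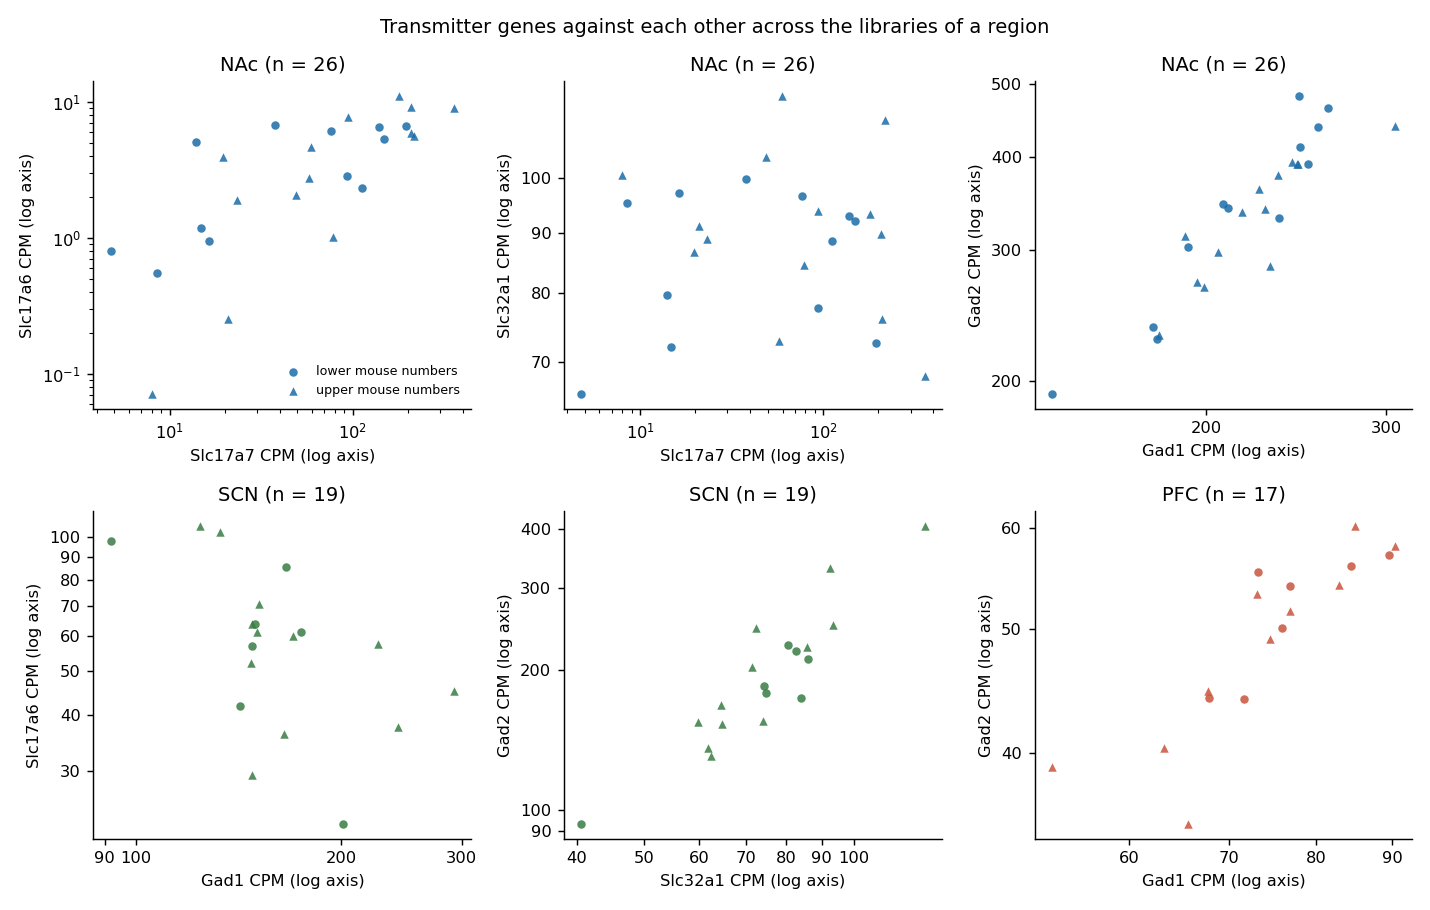
Pairs of transmitter genes across the libraries of a region (CPM, log axes), with circles for the lower and triangles for the upper range of mouse numbers. Slc17a6 climbs with Slc17a7 in the NAc (r = 0.743) while Slc32a1 does not follow (r = 0.0197). The GABA pair drawn for each region rises together: Gad1 with Gad2 in the NAc (r = 0.912) and PFC (0.861) and Slc32a1 with Gad2 in the SCN (0.911).

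Scores of the marker lists were set against each transmitter gene within regions, an analysis added after the data had been seen, with 130 relations adjusted together, of which 25 passed by Pearson's r. Only some of the 25 are described here. In the NAc, Slc17a7 rose with the cortical glutamatergic score (r = 0.934, p = 1e-05, adjusted p = 0.00026; rho = 0.911, p = 1e-05, adjusted p = 0.00026; permutation, the smallest p these permutations can give). The r was 0.935 and 0.922 within the lower and upper range and 0.917 without the 2 farthest libraries. Slc17a7 fell with the striatal projection neuron score (r = -0.705, p = 6e-05, adjusted p = 0.000867; rho = -0.720, p = 6e-05, adjusted p = 0.00111; permutation), with an r of -0.625 in the lower range, where it no longer passed (adjusted p = 0.191), -0.833 in the upper range and -0.615 without the 2 farthest. Across all NAc libraries, Slc17a7 was thus higher where cortical marker RNA was higher and striatal marker RNA lower. Other lists had a like order. The summed interneuron list was also highest in NAc J1199 (217 CPM), then NAc J1140, and lowest in NAc J965 (49.6 CPM). The summed list of all neurons was highest in NAc J1199 (2296 CPM), then NAc J1140, and lowest in NAc J1019 (808 CPM).

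Slc17a6 in the NAc was related to the same scores. Its r with the striatal score was -0.822 (p = 1e-05, adjusted p = 0.00026; rho = -0.907, p = 1e-05, adjusted p = 0.00026; permutation), with -0.746 and -0.845 in the lower and upper range and -0.809 without the 2 farthest libraries, the lower range not passing (adjusted p = 0.0623). With the cortical score r was 0.651 (p = 0.00035, adjusted p = 0.00414; rho = 0.612, p = 0.00118, adjusted p = 0.00959; permutation), and neither range passed alone (0.667 and 0.695, adjusted p = 0.156 and 0.0759), while r was 0.616 without the 2 farthest. The difference between these correlations was not tested.

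In the SCN, Gad1 rose with the score of SCN neurons (r = 0.644, p = 0.00309, adjusted p = 0.0223; rho = 0.733, p = 0.00049, adjusted p = 0.0049; permutation, n = 19). It was 0.864 and 0.503 within the lower and upper range and 0.572 without the 2 farthest libraries, and passed in none of these (adjusted p = 0.058, exact, 0.306 and 0.113, permutation). Slc17a6 fell with the score of ependymal cells, which line the third ventricle beside the SCN (r = -0.601, p = 0.00602, adjusted p = 0.0326; rho = -0.667, p = 0.00232, adjusted p = 0.0177; permutation), with an r of -0.725 and -0.514 within the ranges, not passing in either (adjusted p = 0.323, exact, and 0.306, permutation), and -0.716 without the 2 farthest. Its r with other hypothalamic neurons was 0.338 (p = 0.156, adjusted p = 0.302, permutation) and its rho 0.353 (p = 0.138, adjusted p = 0.272), which did not pass. SCN J1018, lowest in all 3 GABA genes and among the highest in Slc17a6 at 97.8 CPM, had the second lowest summed level of SCN markers (104 CPM, median 282). Its summed level of other hypothalamic markers was the highest (242 CPM, median 143), of which Pomc, which encodes the precursor of melanocortin peptides, made up 162 CPM (median 2.80), and without Pomc the sum was the third lowest (79.9 CPM, median 135). High Pomc was not particular to this library. SCN J1177, second lowest in Slc17a6 (29.3 CPM), held 134 CPM of Pomc and had the lowest sum without it (50.3 CPM). SCN J1141 and SCN J1162 held 37.9 CPM of Pomc each.

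Glial and pan-neuronal markers moved with the GABA genes as well. In the NAc, Gad1 rose with the astrocyte score (r = 0.712, p = 4e-05, adjusted p = 0.00065; rho = 0.708, p = 4e-05, adjusted p = 0.000867; permutation), with an r of 0.652 and 0.806 within the lower and upper range, the lower not passing (adjusted p = 0.156), and 0.553 without the 2 farthest libraries. It rose also with the score of all neurons (r = 0.711, p = 4e-05; rho = 0.642, permutation), a relation that did not pass without the 2 farthest libraries (r = 0.531, adjusted p = 0.0617). In the SCN the 3 GABA genes fell as the microglial score rose, with an r of -0.645 to -0.636 (adjusted p 0.0223 to 0.0226, permutation) that was -0.515 to -0.394 and did not pass without the 2 farthest libraries. The part of other cell types in the levels of the GABA genes was not tested.

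The genes most like each transmitter gene were named by Pearson's r of log2 CPM over the libraries of a region, as a description. For Slc17a7 in the NAc they were Tbr1, Vxn, Cadps2, Nptx1 and Neurod6 (r 0.975 to 0.962 over 26 libraries), of which Tbr1 and Neurod6 encode transcription factors of cortical glutamate neurons and stand on the cortical list. For Slc17a6 in the NAc they were Kcnc2, Vamp1, Pkib, Npr3 and Kcnc4 (0.921 to 0.874), of which Kcnc2 and Kcnc4 encode potassium channels of the Kv3 family. For Slc17a6 in the SCN they were Adcyap1, which encodes the peptide PACAP, Cbln1, which encodes a synaptic organizer, Cabp7, Plcxd2 and Sv2b (0.927 to 0.853 over 19 libraries). The lists of Slc17a6 in the NAc and SCN had no gene in common.

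For the GABA genes, Slc32a1 in the NAc was most like Abat, which encodes the GABA-degrading transaminase, then Abcg1, Tacr1, Grid1 and Cpne5 (r 0.913 to 0.847). Gad1 in the NAc was most like Slc1a3, which encodes an astrocytic glutamate transporter, then Acly, Pygb, Washc2 and Ecel1 (0.949 to 0.915), and Gad2 was most like Slc7a14, Foxp2, Usp29, Ecel1 and Nhs (0.947 to 0.913). In the SCN, Slc32a1 was most like Gad2 and Gad1 themselves, then Nrxn3, Gnl3l and Cul7 (0.911 to 0.860), Gad1 was most like Dner, Rorb, Slc6a17, Cdh2 and Plch2 (0.925 to 0.887), and Gad2 was most like Nrxn3, Prpf4b, Gprasp1, Zmym3 and Usp29 (0.952 to 0.912).

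In the PFC, Slc32a1 was most like Dock10, Kif21b, Klf13, Tspoap1 and Rab11fip4 (r 0.912 to 0.887 over 17 libraries), Gad1 most like Ppm1l, Arhgef4, Cacna2d2, Drp2 and Abat (0.922 to 0.882), and Gad2 most like Ngef, Wnk1, Epb41l1, Kif13a and Speg (0.889 to 0.876). Slc17a7, which varied little there, and Slc17a6 had lower values, 0.839 for Bmp2 with Slc17a7 and 0.743 for Ube2j1 with Slc17a6. Across regions, Abat was on the lists of Slc32a1 in the NAc and Gad1 in the PFC, and Usp29 on those of Gad2 in the NAc and SCN.

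The other genes that supply glutamate did not all follow the transporters. Of 9 such genes, 1 was higher and 4 were lower in the NAc than in the PFC and 4 were not called, with a median log2 fold change of -0.19 beside 0.016 over all genes. The 5 of 9 called lie near the 45.4% called over all genes in that comparison. Slc17a8, which encodes the third vesicular glutamate transporter VGLUT3, was higher in the NAc (median 5.98 against 2.13 CPM, log2 fold change 1.50, adjusted p = 1.62e-13, edgeR), opposite in direction to Slc17a7. Gls2, which encodes a glutaminase, was lower (log2 fold change -1.17, adjusted p = 1.14e-14, edgeR). In the SCN, where 8 of the 9 were tested, 3 were higher and 3 lower than in the NAc, and 2 higher and 4 lower than in the PFC (medians -0.016 and -0.28), so 6 of 8 were called in each, beside 64.1% and 64.7% over all genes. Slc38a1, which encodes a glutamine transporter, was higher in the SCN than in the NAc and PFC (1.31 and 1.12), both called by edgeR.

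Among genes of glutamate uptake and recycling, mostly of astrocytes, none of 6 tested was higher and 2 were lower in the NAc than in the PFC, with a median log2 fold change of -0.065. Those were Slc1a6 (-0.53, adjusted p = 0.0079, edgeR) and Glul, which encodes glutamine synthetase (-0.28, adjusted p = 7.24e-08). Against the NAc the SCN had 2 higher and 2 lower, and against the PFC 2 higher and 3 lower (medians 0.046 and -0.13). The shares called were 2, 4 and 5 of 6, beside 45.4%, 64.1% and 64.7% over all genes. Slc1a6 was higher in the SCN by log2 1.96 and 1.43 against the NAc and PFC, and Slc1a2, which encodes the main astrocytic transporter, lower (-1.28 and -1.33), all called by edgeR.

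Of the genes of GABA uptake and breakdown, 4 were tested. Of these, 2 were higher in the NAc relative to the PFC, 2 in the SCN relative to the NAc and 4 in the SCN relative to the PFC, with medians of 0.49, 0.29 and 1.12 beside 0.016, 0.016 and 0.032 over all genes. Beside 45.4%, 64.1% and 64.7% called over all genes, 2 of 4 is near or below that share. Abat, like the GABA genes, was higher in the NAc (median 205 CPM against 79.3 in the PFC, log2 fold change 1.41, adjusted p = 7.84e-22, edgeR). Aldh5a1, the next enzyme of GABA breakdown, was higher there too (0.66, adjusted p = 9.52e-16, edgeR). Slc6a11, which encodes the GABA transporter GAT3, was at 216 to 398 CPM in the SCN, above every NAc library (19.3 to 93.3 CPM) and every PFC library (31.4 to 43.9 CPM), with log2 fold changes of 2.74 and 3.05 (adjusted p = 1.82e-26 and 4.54e-25, edgeR).

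Genes of the inhibitory synapse and of chloride transport were mixed. Of 8 tested, 4 were higher and 1 lower in the NAc than in the PFC (median 0.18), 2 higher and 4 lower in the SCN than in the NAc (-0.32), and 3 higher and 3 lower in the SCN than in the PFC (-0.16). The 5, 6 and 6 of 8 called are close to the 45.4%, 64.1% and 64.7% over all genes. Slc12a2, which encodes the chloride importer NKCC1, exceeded its PFC level in the NAc (0.90, adjusted p = 5.74e-19, edgeR) and in the SCN (0.86, adjusted p = 4.49e-14). Slitrk3 was lower in the SCN than in the NAc and PFC (-1.41 and -1.59), whereas Iqsec3 was higher (1.39 and 0.87), all called by edgeR. None of the 8 genes listed for other transmitters (such as Chat, Th and Slc18a2) could be tested, since none has a row among the NAc and PFC counts.

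**Figure D4:**
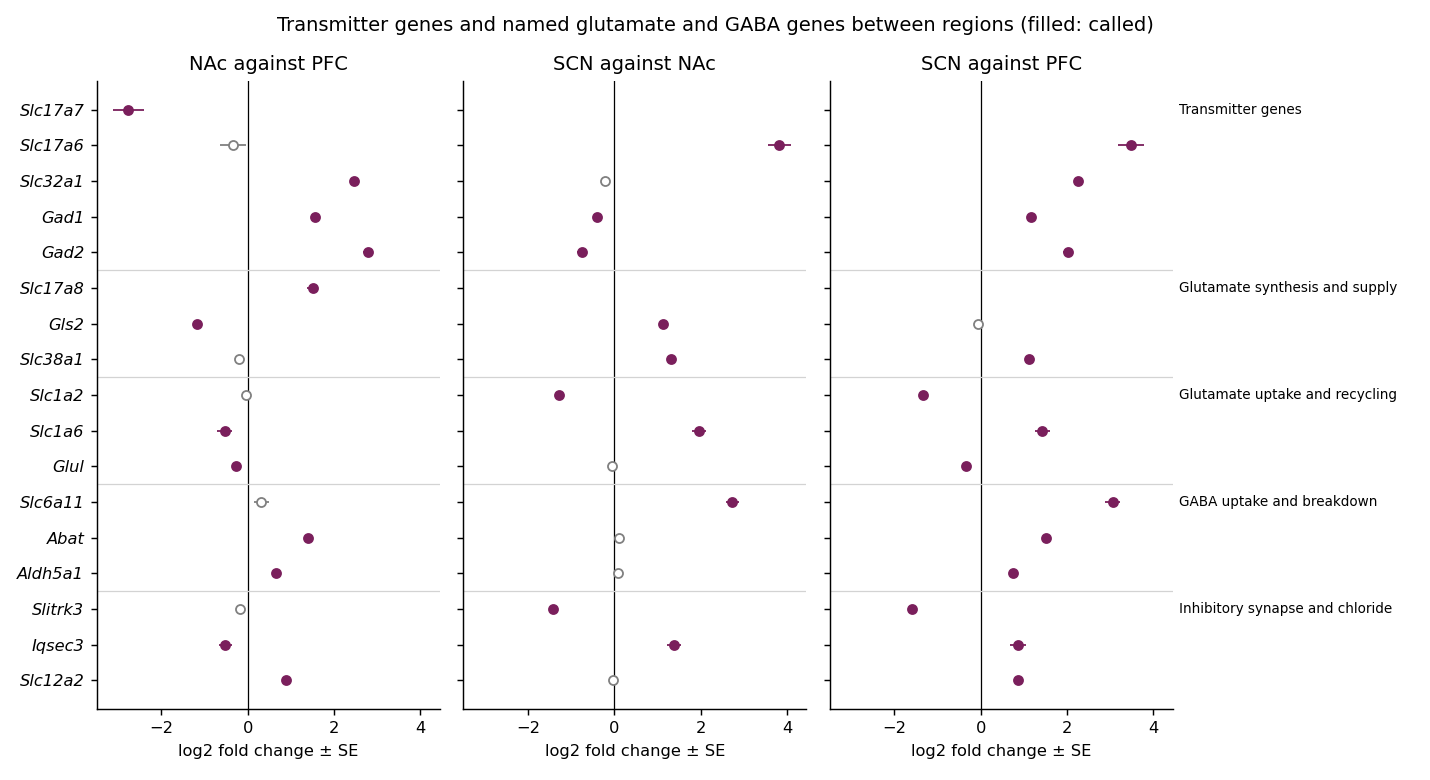
Log2 fold change with its SE of the transmitter genes and of the listed genes named with values in the text, in the 3 regional comparisons, filled where called. Slc17a6 stands at 3.82 and 3.48 in the SCN comparisons, and the GABA genes at 1.57 to 2.78 between the NAc and PFC.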

How the data were processed

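Bulk RNA sequencing counts of 62 mouse libraries were analysed. The authors checked reads with FastQC 0.11.7, used HISAT2 for alignment to GRCm38 from Ensembl and HTSeq (union mode) for counting, removed low-count and Y-chromosome genes and deposited raw counts, the SCN in 1 table and both other regions in another. The strand setting and annotation release are not given in the sources used here. Groups came from the labels. Within a region each library came from a different mouse.

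Symbols, positions and exon lengths came from GENCODE M21 (same build) and promoters from RefSeq (GRCm38.p6), where all 5 genes matched. An exon length counts every base in any annotated exon of a gene, 7639 for Gad1 and 5876 for Gad2. Values per kb, and the order of genes by them, depend on this choice. Regions were compared with edgeR 4.0.16 (R 4.3.3; quasi-likelihood test, TMM, filterByExpr), over 11569 rows for NAc and PFC, and over the 11133 rows of both tables in 1 fit of 62 libraries for the SCN. A call needed an adjusted p (Benjamini-Hochberg) under 0.05 with a fold of at least 1.2. The SE of a log2 fold change was derived from the test, as its absolute value over the square root of the F statistic. DESeq2 1.42.0 was an alternative. Relations used log2 CPM with a prior count of 2 and two-sided permutation tests (100000 resamples, smallest p 1e-05; exact in groups of 7), adjusted over each family. A marker score averages the z-scores of the listed genes whose mean is at least 1 CPM. Scripts were tested on simulated data. Python 3.11.15 with numpy 2.4.6, pandas 2.3.3, scipy 1.17.1 and matplotlib 3.10.9 was used.

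The main fits had no term for the mouse, so libraries of the same mouse entered them as independent samples. Pairing was used only in the within-mouse comparisons and in the fits with the mouse as a block. There, libraries with the same mouse number were paired because the labels give them to 1 animal. This includes J1165, whose libraries differed in Xist. The deviations of a mouse's libraries from their region means correlated at -0.452 to 0.272 for NAc and PFC (median 0.006, over 0.1 in 7 of 17 mice), over 0.1 in 3 of 19 mice for SCN and NAc and in 6 of 12 for SCN and PFC. Counts differed between any 2 libraries of a region by more than sampling noise (lowest chi-square per gene 14.8, 13.1 and 19.6 in the NAc, PFC and SCN). The genes named are the 5 transmitter genes, up to 3 genes per list with the largest called change in a comparison, the 5 genes most like each transmitter gene in a region, markers that describe a library (Pomc and Xist chosen after their values were seen), and Emx1, Chat, Th and Slc18a2, named as listed genes without a row. Some listed genes are counted but not reported by name here. The genes and lists were chosen with earlier results of these data known. CRD and sex were not compared because the labels give neither.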

Additional observations from a re-analysis of the deposited data

Results flagged for a closer look

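In the 3 groups of 10 or fewer libraries that a region and range of mouse numbers gave (PFC lower and upper, SCN lower), 20 tests of a gene or ratio looked for a library far from the others (gap to the nearest over the whole range above Dixon's 95% critical value), and 4 values were found, where chance gives about 1 in 20 tests. In the SCN, J1018 was far below the other 6 libraries of the lower range in Slc32a1 (40.6 CPM, nearest 74.2) and in Gad2 (93.3 CPM, nearest 174). The same library had the lowest summed level of striatal markers in the SCN and 162 CPM of Pomc (median 2.80), beside 134 CPM of Pomc in SCN J1177. In the PFC, J1198 was below the other 9 libraries of the upper range in Slc17a7 (579 CPM, nearest 632), a small step in the gene with nearly the least spread of that region. PFC J1178 had the lowest Gad2 over Gad1 ratio, 0.697 per kb where the nearest library had 0.83.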

How the results depend on the processing

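Of 143 alternative values for the transmitter genes between regions, 142 kept their direction and their side of the threshold, and 1 did not. With the mouse as a replicate block, Slc17a6 between the NAc and PFC moved from -0.34 to -1.15 and was called (adjusted p 0.0133 to 0.799 over its 11 alternatives); the block changed no other call on these genes, though it took Slc17a7 from -2.77 to -4.22. Of the listed genes under the block, Slc6a11 between the NAc and PFC turned from 0.32 to -0.090, not called in either, and Slc38a1 was called at -0.28. The PFC balance moved to 3.68 with the mean of Gad1 and Gad2 in place of Slc32a1, and the PFC and SCN balances to 5.39 and -0.473 without division by exon length. The number of NAc libraries above 0 in the balance was 6 as reported, 11 without that division and 2 with Gad1 and Gad2. Relations between transmitter genes that passed by Pearson's r fell from 11 to 5 in the lower range of mouse numbers. Correlations that had not passed changed sign in 12 alternatives and passed in none. In the NAc, Slc17a7 with Slc32a1 gave -0.0215 on CPM of nuclear protein-coding genes, -0.268 in the upper range and -0.111 without the 2 farthest libraries, Slc17a6 with Slc32a1 gave 0.216 in the lower range and 0.114 without the 2 farthest, and Slc17a7 with Gad2 gave -0.0339 in the upper range. In the PFC, Slc17a7 with Slc17a6 gave -0.454 and -0.0378, and Slc17a6 with Gad2 0.477 and 0.133, in the lower range and without the 2 farthest, Slc17a7 with Slc32a1 gave 0.188 in the lower range, and Slc17a6 with Gad1 -0.0234 in the upper range. The causes were not tested. The lowest Slc17a6 levels of the NAc rest on few counts, from 2 upward, so ratios there are the least precise; groups of 7 libraries limit the tests within ranges.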
